A study of Danio rerio with 8 samples.

Results

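The whole ovaries of zebrafish fed 40 ppb TCDD were compared with those of zebrafish fed 10 ppb TCDD, the lowest of the exposures. The comparison uses the 2 arrays labelled 40 ppb TCDD and the 2 arrays labelled 10 ppb TCDD, chosen by their titles, 4 of the 8 arrays of the study. The other 4 arrays, 2 at 0 ppb and 2 at 100 ppb, entered the fit to share the estimate of spread and are given as levels beside the comparison. All fish were AB-strain females, adults of 6 to 8 months, fed for 15 days, and a ppb is 1 ng of TCDD per g of feed, with acetone-treated feed free of TCDD at 0 ppb. At each dose the RNA of 5 ovaries was combined into 1 pool, and each pool was hybridised on 2 Affymetrix arrays. As the labels describe them, the 2 values of a group are 2 arrays of 1 pool, and every SE and p-value below then measures the spread between arrays of a pool and not the variation between fish.

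TCDD, 2,3,7,8-tetrachlorodibenzo-p-dioxin, binds the aryl hydrocarbon receptor, a transcription factor that moves to the nucleus on binding and induces genes such as cyp1a, a monooxygenase that oxidises foreign compounds. The fish ovary consists mostly of oocytes, which store maternal RNA, and of the follicle cells around them, which make steroid hormones. Oocytes take up vitellogenin, the yolk precursor that the liver makes under estrogen and releases into the blood, so ovary and liver are linked through plasma proteins. The liver also makes most other plasma proteins, among them transferrin, fibrinogen and complement.

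The arrays of the 2 pools did not agree equally well. Over all 15502 probe sets other than controls, the 2 arrays at 40 ppb correlated at r = 0.992 and those at 10 ppb at r = 0.981. The 100 and 0 ppb pools gave 0.991 to 0.992. Of 9301 tested probe sets, 9 differed by at least 1 on the log2 scale between the arrays at 40 ppb, and 190 did so between the arrays at 10 ppb. Whether both 10 ppb arrays carry the same pooled RNA was not tested, and if they do not, SEs and p-values also hold the spread between their samples. Per the instrument records, replicate 2 of every pool was run on 1 shared day, replicate 1 of the 0, 40 and 100 ppb pools on another, and replicate 1 of the 10 ppb pool on a day of its own. The difference between the replicates 2 is given below as the shared-day difference, and counts are also given without replicate 1 of the 10 ppb pool. Median intensities were 57.4 and 36.7 at 40 ppb and 36.3 and 28.1 at 10 ppb, so arrays were quantile normalized, and every level below is log2(intensity + 16) after that step. Differences are means at 40 ppb minus means at 10 ppb in these units, and the added 16 makes those of faint probe sets smaller than they are.

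The labelled tissue was checked against its markers. The zygote arrest gene zar1, an oocyte RNA-binding protein, stood at 11.94 and 11.95 at 40 ppb and at 11.92 and 11.97 at 10 ppb. The Balbiani body gene buc stood at 11.13 and 11.15 at 40 ppb and at 10.77 and 11.08 at 10 ppb. The 29 tested oocyte markers differed by -0.23 to 0.46 and none passed the test. The follicle cell markers gsdf, cyp17a1 and cyp11a1.1 were measured in both pools, whereas amh lay under the tag controls in both. The tag controls are 17 probe sets that match no zebrafish transcript, and their 95th percentile on each array serves here as the background level. The intestinal genes fabp2 and vil1 and the muscle genes mylpfa and pvalb2 were also under that level on both arrays of both pools. The muscle gene ckma was above it, at 5.38 and 5.39 at 40 ppb and at 5.34 and 5.21 at 10 ppb. Of 18 intestine markers, 10 were under it on both arrays at 40 ppb and 9 at 10 ppb. The counts were 16 and 10 of 25 muscle markers, and 8 and 7 of 18 follicle cell markers. The background level itself was an intensity of 20.54 and 8.72 at 40 ppb and of 9.34 and 5.92 at 10 ppb. Of all probe sets other than controls, 63.6% and 69.2% were above it at 40 ppb, and 69.1% and 72.3% at 10 ppb. Counts under background in the 2 pools thus rest on unlike levels.

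Of the 9301 tested probe sets, 91 (0.978%) differed between 40 and 10 ppb at an adjusted p under 0.05 (limma, Benjamini-Hochberg) with a log2 difference of at least 1. Expression was lower at 40 ppb for 63 of them (0.677% of those tested) and higher for 28 (0.301%). The 63 that were lower fell by a median of 2.98, with a range of -5.09 to -1.02. The 28 that were higher differed by a median of 1.29, with a range of 1.005 to 4.096. Without a minimum difference, 137 probe sets (1.47%) passed, 80 of them lower (0.86%) and 57 higher (0.613%). On both pairs of replicates, all 91 had the sign of the mean difference, which follows largely from their choice on these same arrays and is no separate support. The count moved with the arrays of both pools, falling without either array of the 40 ppb pool and rising without either array of the 10 ppb pool. For the 16 tested hepatocyte markers described below, the median difference was -3.73 on all arrays. It was -3.61 and -3.72 without replicate 1 and replicate 2 of the 40 ppb pool. Without replicate 1 and replicate 2 of the 10 ppb pool it was -2.62 and -4.92. The deposited scaling, which moves the median difference of all tested probe sets to 0.48, left 61 calls, 11 of them higher, a share of 18%, against 30.8% after quantile normalization.

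The genes with the largest decreases at 40 ppb were those of plasma proteins and metabolic enzymes made in liver. Of the 63 probe sets, 46 carried 1 gene symbol, for 41 genes, and 23 of these genes stood on 7 lists of liver genes. Over those lists together 84 genes were tested, of which, each by its brightest probe set, 23 were lower and 0 higher at 40 ppb. Over all 6335 tested genes, counted likewise, 41 (0.647%) were lower and 12 (0.189%) higher. On a dimmer probe set, 1 gene of the liver lists was called higher, the alpha-2-macroglobulin paralog a2m3d. The median difference over the 84 genes was -0.52, against 0.02 over all tested genes. On the shared day these medians were -0.24 and 0.01. Without replicate 1 of the 10 ppb pool 27 of the 84 were lower, without its replicate 2 38, and without replicate 1 or replicate 2 of the 40 ppb pool 8 and 9. Testing required a mean over all 8 arrays above 5.11, so some of the 84 passed through their 10 ppb values. Hemopexin (hpxb) was one, with means of 4.26, 4.14 and 4.42 at 0, 40 and 100 ppb. With the filter over the 0 and 100 ppb arrays, 17 of 75 were lower and 0 higher, against 33 and 12 of all 6338 genes. The complement, clotting and hepatocyte lists then held 4 of 8, 3 of 6 and 9 of 13 lower. The lists were drawn up with earlier results of these arrays known, so the counts describe the pools.

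Hemopexin and transferrin showed the largest decreases among the named genes. Hemopexin (hpxb), which scavenges free heme, stood at 4.11 and 4.17 at 40 ppb and at 9.63 and 8.19 at 10 ppb. Both arrays at 40 ppb lay under the tag controls, so by its 10 ppb mean the gene was at least 16.9-fold lower at 40 ppb. This bound replaces the 40 ppb level by the lowest signal above those controls. Like the other bounds below, it does not allow for the gap between the arrays of the brighter pool. The fitted difference was -4.77 ± 0.36 (SE, 2 arrays per pool, limma adjusted p = 0.000181). The 0 and 100 ppb pools averaged 4.26 and 4.42, with 1 of 2 arrays at 0 ppb and both arrays at 100 ppb also under the tag controls. Their closeness to the 40 ppb pool is thus that of levels near background.

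Transferrin (tfa), the iron carrier of plasma, stood at 6.33 and 6.64 at 40 ppb and at 11.65 and 10.63 at 10 ppb. Its difference was -4.66 ± 0.26 (limma adjusted p = 1.48e-05), the smallest p of the named genes. Both arrays at 10 ppb were far above both at 40 ppb, and the 40 ppb pool was also below the 0 ppb pool, whose arrays read 7.62 and 7.74. That last difference, -1.20, did not pass (limma adjusted p = 0.0856). Ceruloplasmin (cp), a copper-carrying ferroxidase, stood at 5.42 and 5.46 at 40 ppb and at 10.50 and 8.28 at 10 ppb. The protease inhibitor serpina1l, of the alpha-1-antitrypsin family, stood at 5.69 and 5.87 at 40 ppb and at 10.84 and 8.88 at 10 ppb. In both genes the arrays at 40 ppb nearly coincided, whereas replicate 1 at 10 ppb was far above replicate 2, and no array at 40 ppb reached either.

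These 4 genes were the called members of 15 tested on the list of acute phase, iron and heme proteins. The list median was -1.78, and -0.89 on the shared day. Another 9 members were lower without passing, among them haptoglobin (hp, -1.76, adjusted p = 0.0615), the bikunin precursor ambp (-2.22, adjusted p = 0.0835) and fabp10a, the liver fatty acid binding protein (-0.82, adjusted p = 0.35, all limma). Only 2 tested members read higher at 40 ppb, rbp4, the plasma retinol carrier, at 0.11, and crp at 0.42. With scan day as a block, rbp4 differed by 1.04 and passed (limma adjusted p = 0.00205), and without replicate 2 of the 10 ppb pool it differed by -0.73 (limma adjusted p = 0.0343), with arrays of 7.09 and 7.24 at 40 ppb and of 7.90 and 6.22 at 10 ppb. The list held 7 decreases with the day as a block and 6 without replicate 1 of the 10 ppb pool, against 13 without its replicate 2.

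**Figure D1:**
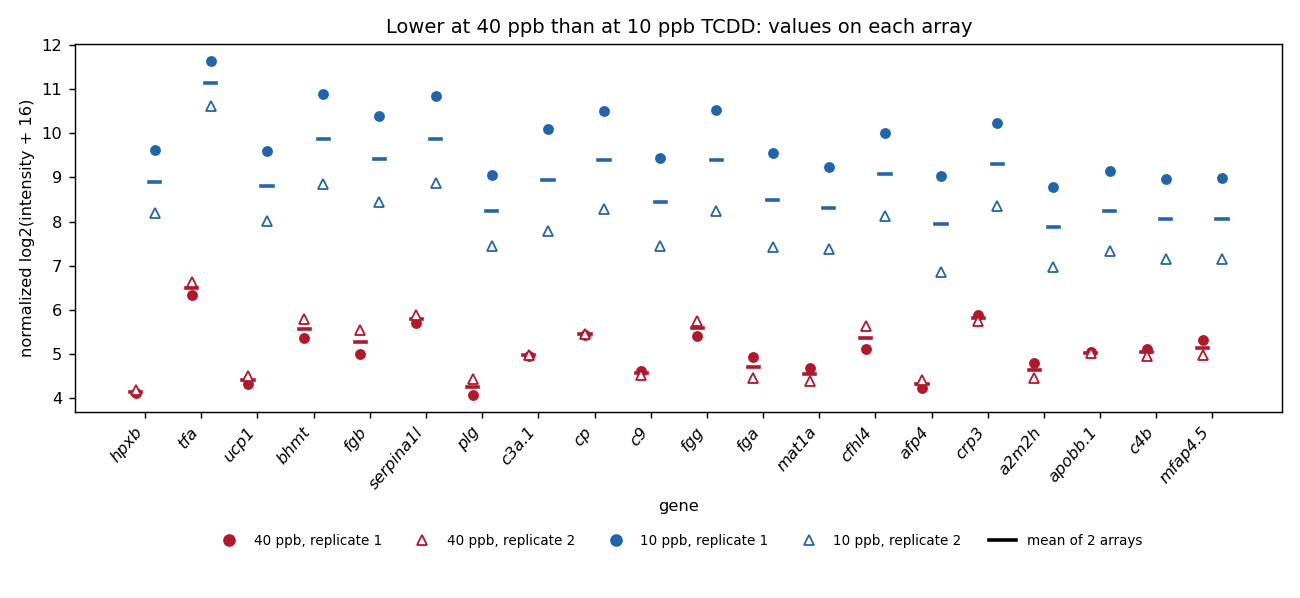
Levels of the 20 named genes with the largest decreases at 40 ppb, as normalized log2(intensity + 16) on each array, with replicate 1 as circles, replicate 2 as triangles and the mean of 2 arrays as a bar. The 40 ppb arrays (left of each pair, red) lie close together and below both 10 ppb arrays (blue), whose replicate 1 is above replicate 2 in every gene shown.

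Complement genes, which encode a plasma cascade that marks and lyses microbes, were lower at 40 ppb in 5 of 9 tested members. The list median was -2.48, and -1.48 on the shared day. The central component c3a.1 stood at 4.96 and 4.97 at 40 ppb and at 10.10 and 7.79 at 10 ppb, a difference of -3.98 ± 0.53 (limma adjusted p = 0.00395). The pore-forming component c9 was measured by 3 probe sets, which differed by -3.90, -3.63 and -3.19 and all passed. The regulator cfhl4, of the factor H family, stood at 5.10 and 5.63 at 40 ppb and at 10.02 and 8.12 at 10 ppb. The other called members were c4b (-3.03) and the protease cfi (-2.48), the last at least 4.23-fold lower because both arrays at 40 ppb were under the tag controls. Members c7b (-0.18) and c6.2 (0.01), both of the lytic complex, were above background in both pools and did not pass. Counted by each gene's brightest probe set, the list held 0 calls without replicate 1 and 1 without replicate 2 of the 40 ppb pool, and 6 without either array of the 10 ppb pool in turn. The probe set of c9 with the -3.90 difference, which is not its brightest, kept its call in each of these fits. Its means were 4.84, 4.555 and 4.72 at 0, 40 and 100 ppb, under the filter value of 5.11. It was thus tested only through its 10 ppb values, and the kept call is no separate support.

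Clotting genes were lower in 5 of 8 tested members, with a list median of -3.28, and of -2.16 on the shared day. All 3 chains of fibrinogen, the protein that forms the clot, were among them. The beta chain fgb stood at 5.00 and 5.53 at 40 ppb and at 10.39 and 8.43 at 10 ppb, a difference of -4.15 ± 0.46 (limma adjusted p = 0.00174). The gamma chain fgg differed by -3.82 ± 0.54 and the alpha chain fga by -3.80 ± 0.50, with fga at least 12.6-fold lower since both its arrays at 40 ppb were under the tag controls. Replicate 1 of the 10 ppb pool was above replicate 2 by 1.96, 2.29 and 2.15 in fgb, fgg and fga. This common gap enters each SE, so the SEs do not measure how alike the 3 differences are.

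Plasminogen (plg), the precursor of the enzyme that dissolves clots, stood at 4.06 and 4.42 at 40 ppb and at 9.05 and 7.44 at 10 ppb on the probe set with the larger difference, at least 10.7-fold lower. Its second probe set differed by -3.66 and also passed. Coagulation factor V (f5) was at least 5.17-fold lower. The transglutaminase subunit f13a1b, which cross-links fibrin and is also made outside the liver, stood at 8.22 and 8.35 at 40 ppb and at 8.56 and 8.62 at 10 ppb and did not pass (-0.31, limma adjusted p = 0.40). By brightest probe sets, the calls numbered 2 of 8 without replicate 1 and 1 of 8 without replicate 2 of the 40 ppb pool, and 5 without replicate 1 of the 10 ppb pool.

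Apolipoproteins, which carry lipid in plasma, were lower in 4 of 14 tested members of their list. The list median was -0.39, and -0.12 on the shared day. Apolipoprotein B (apobb.1), the large structural protein of lipoproteins, stood at 5.03 and 5.01 at 40 ppb and at 9.14 and 7.33 at 10 ppb, a difference of -3.21 ± 0.42 (limma adjusted p = 0.00387). The small apolipoproteins apoc2 (-2.85), apoc1 (-2.38) and apoa2 (-2.28) also passed. Of these, apoa2 was bright in both pools, with 7.80 and 8.03 at 40 ppb and 11.25 and 9.14 at 10 ppb. Apolipoprotein A-I (apoa1a) stood at 4.37 and 5.16 at 40 ppb and at 8.61 and 6.13 at 10 ppb, without a call (-2.61, limma adjusted p = 0.0658). Apolipoprotein E (apoeb), which other tissues also make, stood at 10.03 and 9.97 at 40 ppb and at 9.20 and 10.09 at 10 ppb. No member was called without replicate 1 or without replicate 2 of the 40 ppb pool, and 6 were without replicate 1 of the 10 ppb pool.

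On the list of amino acid and one-carbon metabolism, 3 of 17 tested members were lower and 0 higher. Betaine-homocysteine methyltransferase (bhmt), which remakes methionine, stood at 5.36 and 5.78 at 40 ppb and at 10.90 and 8.85 at 10 ppb, a difference of -4.31 ± 0.48 (limma adjusted p = 0.00166). The liver methionine adenosyltransferase mat1a was at least 11.1-fold lower, and the creatine-synthesis enzyme gamt differed by -1.90. The ubiquitous paralog mat2aa stood at 10.46 and 10.33 at 40 ppb and at 10.35 and 10.46 at 10 ppb. The glycine methyltransferase gnmt (-0.53, limma adjusted p = 0.30) and the sarcosine dehydrogenase sardh (-0.16) did not pass. The list median was -0.27 and becomes 0.19 in the deposited scaling, less than the shift of all probe sets in that scaling. On the shared day it was -0.13. In the list of carbohydrate, bile acid and xenobiotic metabolism 2 of 19 passed, ucp1, a mitochondrial uncoupling protein, and igfbp1a, a binding protein of insulin-like growth factors. The median of that list was -0.08, and 0.07 on the shared day. A second probe set of bhmt differed by -3.20 and was called, whereas that of igfbp1a (-1.67) was not.

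The mitochondrial carrier ucp1 stood at 4.32 and 4.49 at 40 ppb and at 9.61 and 8.01 at 10 ppb, at least 15.7-fold lower. The 0 ppb arrays read 5.46 and 5.28 and the 100 ppb arrays 5.16 and 4.65, so the 10 ppb pool was the high one. Other decreases among the largest named were in afp4, a type IV antifreeze protein gene (at least 8.64-fold), crp3, of the C-reactive protein family (-3.48), a2m2h, of the alpha-2-macroglobulin family (at least 8.25-fold), mfap4.5 (-2.93) and the carboxylesterase ces2a (-2.92). By their brightest probe sets, the 3 tested alpha-2-macroglobulin paralogs of the liver lists gave 0 calls, with differences of 0.05 to 1.15. With scan day as a block, their list also held a call higher at 40 ppb. Another probe set of a2m3d, among these 3, was called higher at 40 ppb (1.025).

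Marker lists of liver and of neighbouring organs were set beside these genes. Summed over 20 hepatocyte markers on the array, the linear intensity was 698 and 776 at 40 ppb and 17450 and 4801 at 10 ppb, and 998 to 1162 on the 4 arrays at 0 and 100 ppb. Of 16 tested hepatocyte markers 12 were lower and 0 higher, with a median difference of -3.73, and of -2.51 on the shared day. By sign alone, 15 of the 16 read lower and 1 higher (0.11). On the liver lists above, 15 of the 16 also stand. Of the 20 markers 6 were under the tag controls on both arrays at 40 ppb and 2 were at 10 ppb, where the background level was lower in each replicate. Both hpxb and fga were among those under them at 40 ppb and above them at 10 ppb. In bulk tissue, fewer cells of a type and less RNA per cell cannot be told apart. The marker sum was highest in replicate 1 of the 10 ppb pool, as the plasma protein genes were. Of the 20 markers 19 stand on the liver lists, so the sum had to move with those genes. Its part in the decreases was not tested.

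The 22 exocrine pancreas markers summed to 916 and 1220 at 40 ppb, against 2723 and 1072 at 10 ppb. The high sum was that of replicate 1 of the 10 ppb pool, and on the shared day the 40 ppb array was the higher one. The defining pancreas genes ctrb.1 and prss1, both digestive proteases, were measured in both pools, with ctrb.1 at 6.40 and 7.07 at 40 ppb and at 8.60 and 6.66 at 10 ppb. No pancreas marker of 13 tested passed, and 7 were lower without replicate 2 of the 10 ppb pool. Intestine (0 of 4), erythrocyte (0 of 5), skeletal muscle (0 of 5), and adipose and endothelial markers (0 of 5) gave no calls, and leukocyte markers gave 1 of 15. The oocyte markers summed to 78410 and 75940 at 40 ppb and to 74470 and 75720 at 10 ppb.

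The 91 called differences, chosen on these same arrays, had the same sign on both arrays of the 10 ppb pool but not the same size. Among the 63 decreases, replicate 1 of the 10 ppb pool was above replicate 2 for 59, with a median gap of 1.82 (from -0.30 to 2.67), whereas the gap between the 40 ppb replicates had a median of -0.04. The median difference was -3.84 between replicates 1 and -2.10 between replicates 2, the shared-day pair. On the shared day the decreases ran from -4.21 to -0.77. Among the 28 increases the corresponding medians were 1.36 and 1.41, and the 10 ppb arrays were at least 1 apart for 3 of them, against 51 of the 63 decreases. Among all tested probe sets 139 differed by at least 1 on the shared day, 84 of them called, and 181 did so between replicates 1, 85 of them called.

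**Figure D2:**
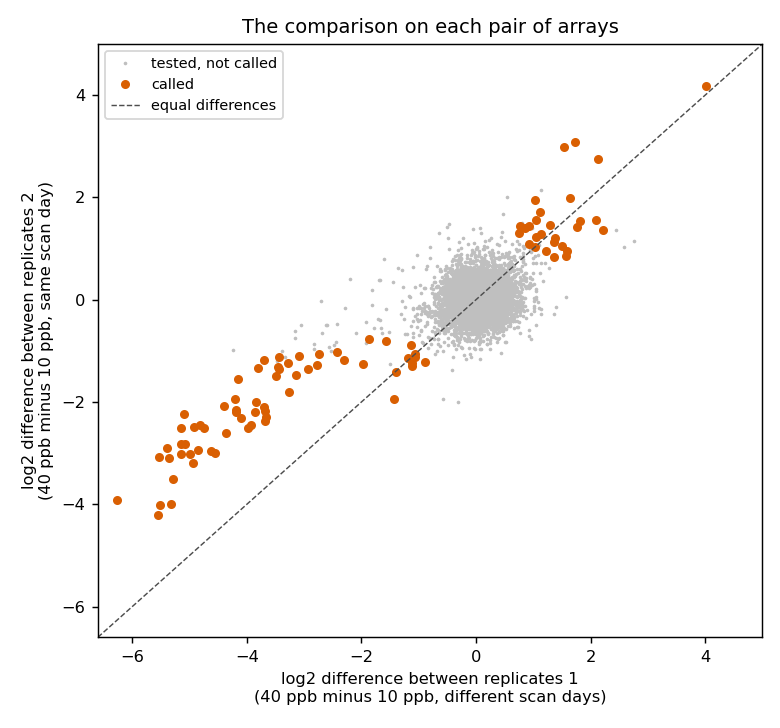
Log2 difference, 40 ppb minus 10 ppb, between replicates 1 (x axis, different scan days) and between replicates 2 (y axis, same scan day) for each of 9301 tested probe sets, with the 91 called ones in orange and a dashed line of equal differences. The largest called decreases lie above the line at left and the smallest around it, with a median of -3.84 between replicates 1 and -2.10 on the shared day, and the called increases lie around it.

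A smaller group of decreases had arrays in close agreement in both pools. Granulin (grna.1), a secreted growth factor listed with leukocyte genes, stood at 6.92 and 6.78 at 40 ppb and at 8.32 and 8.19 at 10 ppb, a difference of -1.40 ± 0.15 (limma adjusted p = 0.00137). The mitochondrial dehydrogenase hsd17b10, which oxidises steroids and fatty acid intermediates, stood at 7.06 and 7.00 at 40 ppb and at 8.25 and 8.14 at 10 ppb, a difference of -1.16 ± 0.12 (limma adjusted p = 0.00142). In both genes the arrays of a pool nearly coincided and the pools did not overlap. Both calls held without each of the 8 arrays in turn and ended in the deposited scaling, at -0.93 and -0.67.

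Annexin A1 (anxa1a), a calcium-dependent membrane-binding protein, stood at 7.90 and 7.83 at 40 ppb and at 8.96 and 8.88 at 10 ppb, a difference of -1.06 ± 0.12 (limma adjusted p = 0.00208). Its arrays read 9.80 and 9.72 without TCDD, and 6.99 and 7.26 at 100 ppb, so the level was lower at each higher dose. The tetraspan gene tm4sf21a stood at 5.57 and 5.90 at 40 ppb and at 7.43 and 6.67 at 10 ppb (-1.32 ± 0.24, limma adjusted p = 0.0246), and tmsb1, a thymosin that binds actin monomers, at 5.99 and 5.56 at 40 ppb and at 7.101 and 6.799 at 10 ppb. The transcobalamin gene tcnbb, of a family that binds vitamin B12, named after its values were seen, stood at 4.27 and 4.82 at 40 ppb, at 6.57 and 5.99 at 10 ppb, and so differed by -1.74. Of the 63 decreases, anxa1a, tm4sf21a and tcnbb were the 3 whose pool means fell over 0, 10, 40 and 100 ppb, an order that 608 of 9301 tested probe sets (6.54%) had. In the deposited scaling the calls of anxa1a, tm4sf21a and tmsb1 ended. The SE in that scaling was 0.63 for anxa1a, 0.61 for grna.1 and 0.62 for hsd17b10, wider than after quantile normalization. That of tm4sf21a also ended with scan day as a block and without either array of the 40 ppb pool or replicate 1 of the 10 ppb pool, and that of tmsb1 without replicate 2 of the 40 ppb pool.

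Among keratins, the intermediate filaments of epithelia, 4 passed the test by less than the minimum difference, all lower at 40 ppb. Of 21 tested genes on the epithelial list, tm4sf21a was called, and without a minimum difference 5 were lower and 0 higher, where 53 of all 6335 genes (0.837%) were lower and 24 (0.379%) higher. Those without a call were krt4 (-0.96, adjusted p = 0.0302), krt8 (-0.85, adjusted p = 0.018), krt18a.1 (-0.78, adjusted p = 0.025) and krt94 (-0.78, adjusted p = 0.0246, all limma). On the shared day these 4 keratins differed by -0.67, -0.70, -0.61 and -0.75, in the same order. With scan day as a block krt4 differed by -0.65 and no longer passed the test. The simple-epithelium keratin krt8 stood at 9.15 and 9.09 at 40 ppb and at 10.15 and 9.79 at 10 ppb, with no overlap. The keratins krt5 (0.33, limma adjusted p = 0.638) and krt18b (-0.09, limma adjusted p = 0.933) did not pass. For krt8 the 0 ppb arrays read 10.04 and 10.42, around the 10 ppb pool, and the 100 ppb arrays 8.65 and 8.68. The epithelial adhesion genes epcam (-0.06) and cdh1 (-0.06), both membrane proteins that join cells, were bright in both pools. In the deposited scaling krt8 differed by -0.38 and krt4 by -0.51, beside the 0.48 shift of all tested probe sets, and the list median turned from -0.22 to 0.22. Annexin A2 (anxa2a, -0.69, limma adjusted p = 0.0371) and a fibronectin (fn1b, -0.94, limma adjusted p = 0.0471), a matrix glycoprotein, also passed only without the minimum.

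Among genes higher at 40 ppb, the egg yolk precursors were the one list with several calls. Vitellogenin 4 (vtg4) stood at 8.14 and 8.53 at 40 ppb and at 5.93 and 7.18 at 10 ppb, a difference of 1.78 ± 0.34 (limma adjusted p = 0.0302). Vitellogenin 3 (vtg3) stood at 6.56 and 6.75 at 40 ppb and at 4.98 and 5.80 at 10 ppb, a difference of 1.27 ± 0.23 (limma adjusted p = 0.0236). In both the 40 ppb arrays lay above the 10 ppb arrays, and replicate 1 was the lower array at 10 ppb, the reverse of the plasma protein genes, for which it was the higher one.

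The brightest of them, vtg2, stood at 9.49 and 10.20 at 40 ppb and at 7.04 and 8.83 at 10 ppb, 1.91 ± 0.44 higher without a call (limma adjusted p = 0.0751). It passed with scan day as a block, at 1.24 (limma adjusted p = 0.000427), and with the replicate block (limma adjusted p = 0.0088). The day block ended the call of vtg3 (0.91), and without replicate 1 of the 10 ppb pool vtg2 differed by 1.01 (limma adjusted p = 0.0561). The vtg2 arrays read 10.75 and 11.04 without TCDD, and 9.63 and 10.01 at 100 ppb, so the 40 ppb pool lay between the 10 and 0 ppb pools. The estrogen receptor esr1, which drives vitellogenin in liver, was not tested for its low level, and esr2a differed by 0.09. The calls of vtg3 and vtg4 ended without either array of the 40 ppb pool, and that of vtg3 also without replicate 1 of the 10 ppb pool (0.86).

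**Figure D3:**
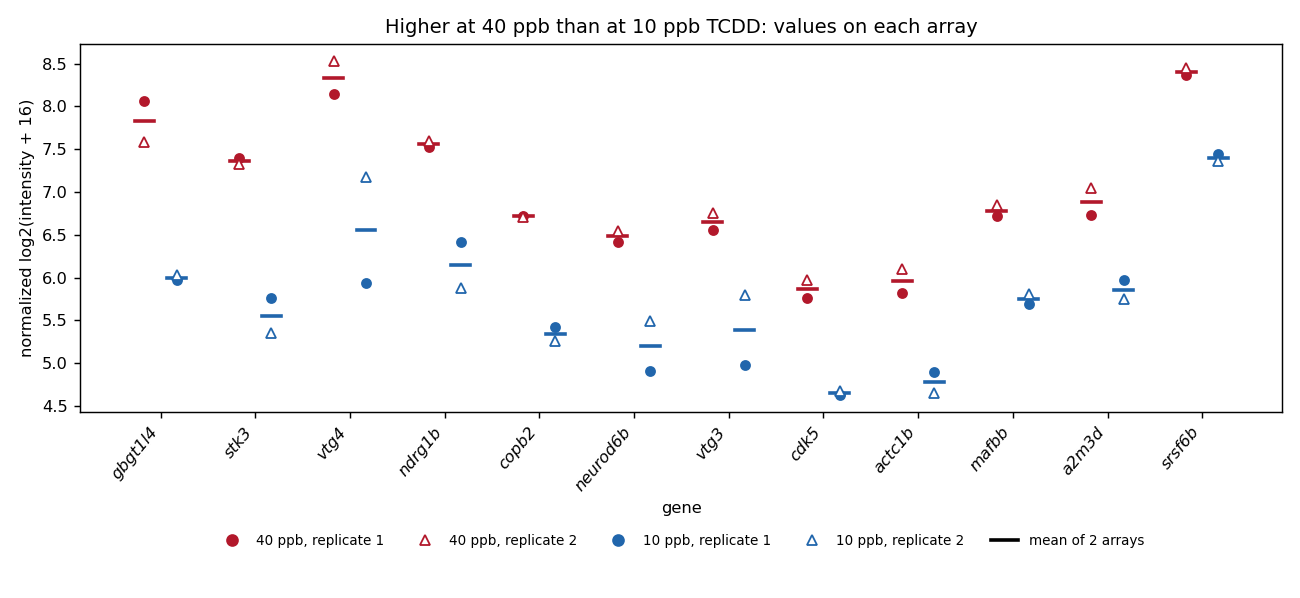
Levels of the 12 named genes with the largest increases at 40 ppb, as normalized log2(intensity + 16) on each array, with replicate 1 as circles, replicate 2 as triangles and the mean of 2 arrays as a bar. In each gene both 40 ppb arrays (left of each pair, red) lie above both 10 ppb arrays (blue), and the 10 ppb arrays are widest apart in vtg4 and vtg3.

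The glycosyltransferase gene gbgt1l4, of a family that adds N-acetylgalactosamine to glycolipids, stood at 8.06 and 7.59 at 40 ppb and at 5.97 and 6.04 at 10 ppb. The difference was 1.82 ± 0.17 (limma adjusted p = 0.000701), and a second probe set differed by 1.09 and was called too. Its levels alternated over the doses, with 8.31 and 8.10 without TCDD, and 5.96 and 6.09 at 100 ppb. Of 10 tested genes on the glycan list it was the called one, and its paralog gbgt1l1 differed by -0.18. The same alternation, with the 0 and 40 ppb means at least 1 away from the 10 and 100 ppb means, was found for 5 of the 28 increases and for 6 of all 9301 tested probe sets (0.0645%). Its definition includes the minimum difference of a call between 40 and 10 ppb, so these counts only describe the levels.

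Other members of that set were neurod6b, a neuronal transcription factor, at 6.42 and 6.55 at 40 ppb and at 4.91 and 5.49 at 10 ppb, and 3 more that were picked out after their values were seen. Of these, si:ch73-380l3.2 stood at 6.36 and 6.83 at 40 ppb and at 4.23 and 4.07 at 10 ppb, under the tag controls, which makes it at least 3.78-fold higher at 40 ppb. A probe set without a gene name gave the largest increase of all, at 9.68 and 9.53 at 40 ppb and at 5.66 and 5.36 at 10 ppb, a difference of 4.096 ± 0.17 (limma adjusted p = 2e-06). It read 9.43 and 9.07 without TCDD, and 6.07 and 5.76 at 100 ppb. Another without a name stood at 11.06 and 10.80 at 40 ppb and at 9.53 and 7.82 at 10 ppb, and read 4.21 and 4.26 at 100 ppb. For each of these probe sets the 40 ppb pool lay nearer to the 0 ppb pool than to the 10 ppb pool, and the 10 and 100 ppb pools were the low ones. The call of neurod6b ended without either array of the 40 ppb pool and without replicate 1 of the 10 ppb pool.

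The kinase stk3, of the Hippo pathway that restrains organ growth, stood at 7.40 and 7.33 at 40 ppb and at 5.76 and 5.35 at 10 ppb, a difference of 1.81 ± 0.16 (limma adjusted p = 0.000518). Its arrays read 6.72 and 6.68 without TCDD, and 6.12 and 6.10 at 100 ppb, so the 40 ppb pool was the highest. Of the 12 named increases, gbgt1l4 and stk3 were the 2 called under every alternative that tested them. The stress-responsive gene ndrg1b stood at 7.52 and 7.60 at 40 ppb and at 6.41 and 5.88 at 10 ppb, a difference of 1.42 ± 0.18 (limma adjusted p = 0.0026).

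The other 6 named increases ranged from 1.005 to 1.38. They were copb2, a coatomer subunit of vesicle transport (1.38), the kinase cdk5 (1.21), the cardiac actin actc1b (1.19), the transcription factor mafbb (1.03), the alpha-2-macroglobulin paralog a2m3d (1.02) and the splicing factor srsf6b (1.005). Their probe sets did not all speak alike. The other 2 tested probe sets of copb2 differed by 0.12 and -0.14, and those of actc1b by 0.18 and -0.18, without a call. The second probe set of a2m3d differed by 1.15 without passing. For srsf6b, the arrays read 8.37 and 8.44 at 40 ppb and 7.44 and 7.36 at 10 ppb, with no overlap and little spread. In the deposited scaling 9 of the 12 named increases lost their call, namely all but gbgt1l4, stk3 and vtg4. A lost call there need not mean a smaller difference. For vtg3 the difference was 1.67 ± 0.56 (SE) in that scaling, against 1.27 ± 0.23 after quantile normalization. The calls of actc1b, mafbb and a2m3d ended without either array of the 40 ppb pool, those of cdk5 and srsf6b without its replicate 2, that of mafbb without replicate 1 and those of a2m3d and srsf6b without replicate 2 of the 10 ppb pool.

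Placed beside the other doses, most decreases were genes for which the 10 ppb pool stood apart. Over the 63 decreases the median of the pool means was 5.37 at 0 ppb, 8.25 at 10 ppb, 5.12 at 40 ppb and 5.43 at 100 ppb. For 50 of the 63 the 10 ppb mean was at least 1 away, on 1 side, from each of the other 3 means, against 81 of 9301 tested probe sets (0.871%). The same held for 7 of the 28 increases, whose medians were 7.17 at 0 ppb, 5.75 at 10 ppb, 7.12 at 40 ppb and 6.32 at 100 ppb. These counts share the 10 ppb arrays with the comparison that chose the genes and are a description of the levels. A single tested probe set had the 40 ppb pool apart from all others in the same way.

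**Figure D4:**
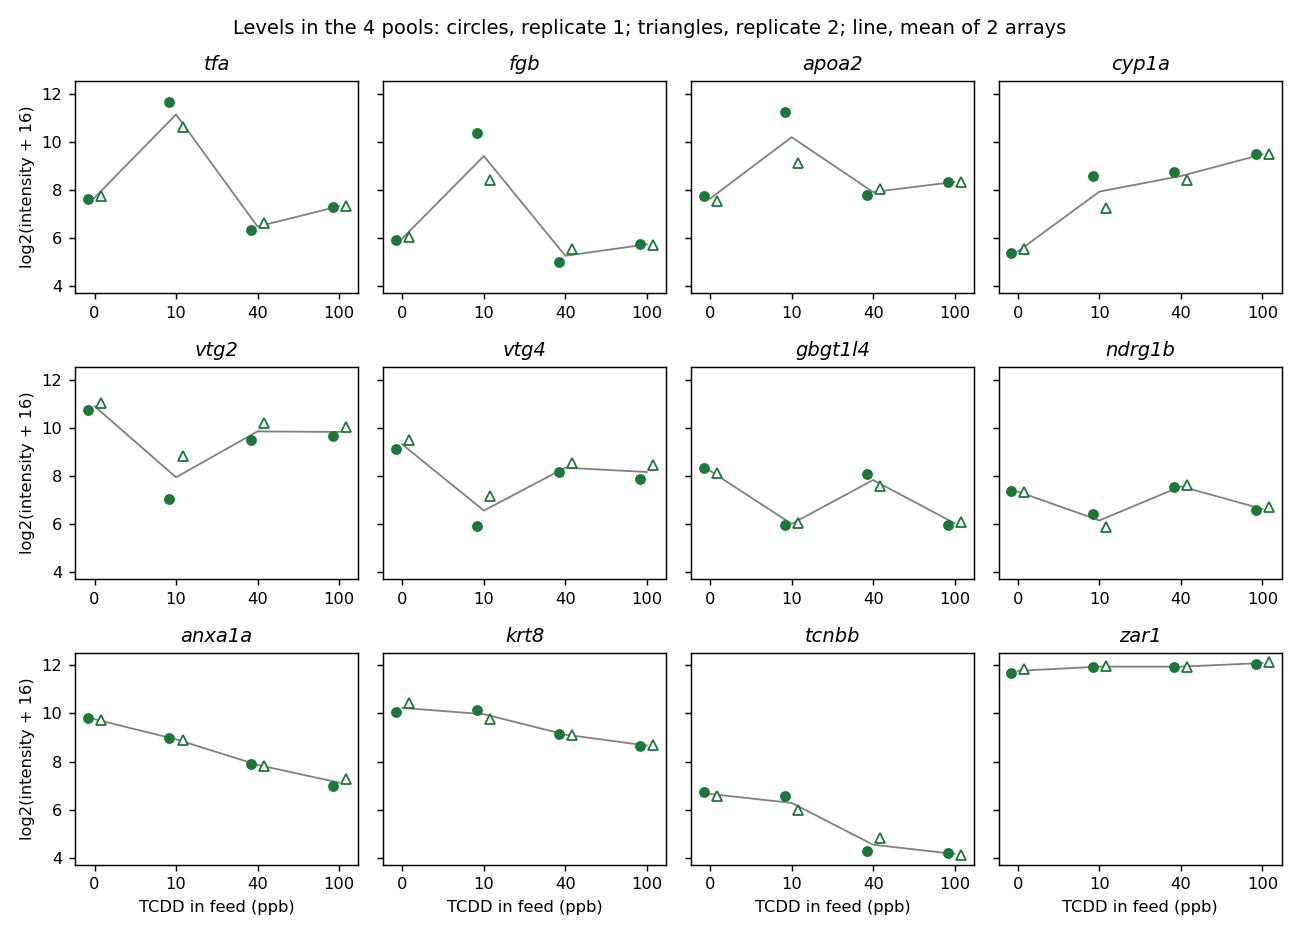
Levels of 12 genes in the 4 pools, as normalized log2(intensity + 16), with circles for replicate 1, triangles for replicate 2 and a line through the means of 2 arrays; the doses are drawn at equal steps. In tfa, fgb and apoa2 the 10 ppb pool is the high one, and in vtg2, vtg4 and ndrg1b the low one. The pool means of anxa1a, krt8 and tcnbb are lower at each higher dose, though the 0 and 10 ppb arrays of krt8 overlap. The level of zar1 stays between 11.68 and 12.13.

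The receptor that TCDD binds and its targets gave no call between these 2 doses. The target cyp1a stood at 8.75 and 8.41 at 40 ppb and at 8.60 and 7.27 at 10 ppb, 0.65 ± 0.32 higher (limma adjusted p = 0.577). The 0 ppb arrays read 5.37 and 5.53, below all 4, and the 100 ppb arrays 9.48 and 9.49, above all 4. The outcome turned on the arrays of the 10 ppb pool, since the difference was 1.31 without its replicate 1 (limma adjusted p = 0.00122) and -0.01 without its replicate 2. With scan day as a block it was 1.28 (limma adjusted p = 0.00149), and the shared-day difference was 1.14. Replicate 2 at 40 ppb lay below replicate 1 at 10 ppb, so the pools overlapped.

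The other tested genes of that list were the receptor ahr2 (0.27), tiparp, an ADP-ribosyltransferase that represses the receptor (0.22), the quinone reductase nqo1 (0.31), the clock gene bmal1a (0.16) and the chaperone hsp90ab1 (-0.06). None of the 6 passed, and their median was 0.25. The tiparp arrays read 6.95 and 6.55 at 40 ppb and 6.59 and 6.47 at 10 ppb, which overlap, against 7.46 and 7.38 at 100 ppb. The related monooxygenase cyp1c1 was too dim to be tested.

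Genes of steroid synthesis did not move as a group. Of 17 tested, hsd17b10 was the 1 call, and the median difference was 0.00. The side-chain cleavage enzyme cyp11a1.1, the first step of steroid synthesis, stood at 9.35 and 9.63 at 40 ppb and at 8.997 and 9.657 at 10 ppb. The hydroxylase cyp17a1, needed for androgens, stood at 8.99 and 8.73 at 40 ppb and at 8.77 and 9.25 at 10 ppb. The aromatase cyp19a1a, which makes estrogen, stood at 5.94 and 5.61 at 40 ppb and at 5.65 and 6.04 at 10 ppb. For all 3 the arrays of the pools overlapped.

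Lists of the general machinery of the cell gave no calls. Cytosolic ribosomal proteins (0 of 69) differed by -0.21 to 0.11, oxidative phosphorylation genes (0 of 85) by -0.70 to 0.36, chaperones and oxidative stress genes (0 of 37) by -0.75 to 0.32, and cell cycle genes (0 of 30) by -0.75 to 0.68. Extracellular matrix genes (0 of 19) had a median of 0.31, and of 0.09 on the shared day. Between replicate 1 and replicate 2 of the 10 ppb pool, the gelatinase mmp2 differed by -1.21 and the collagen col18a1a by -0.81. Cathepsins (0 of 11), the proteases of lysosomes and yolk processing, had a median of 0.03. The actin-binding list held 1 call of 19, tmsb1, and the annexin list 1 of 12, anxa1a.

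**Figure D5:**
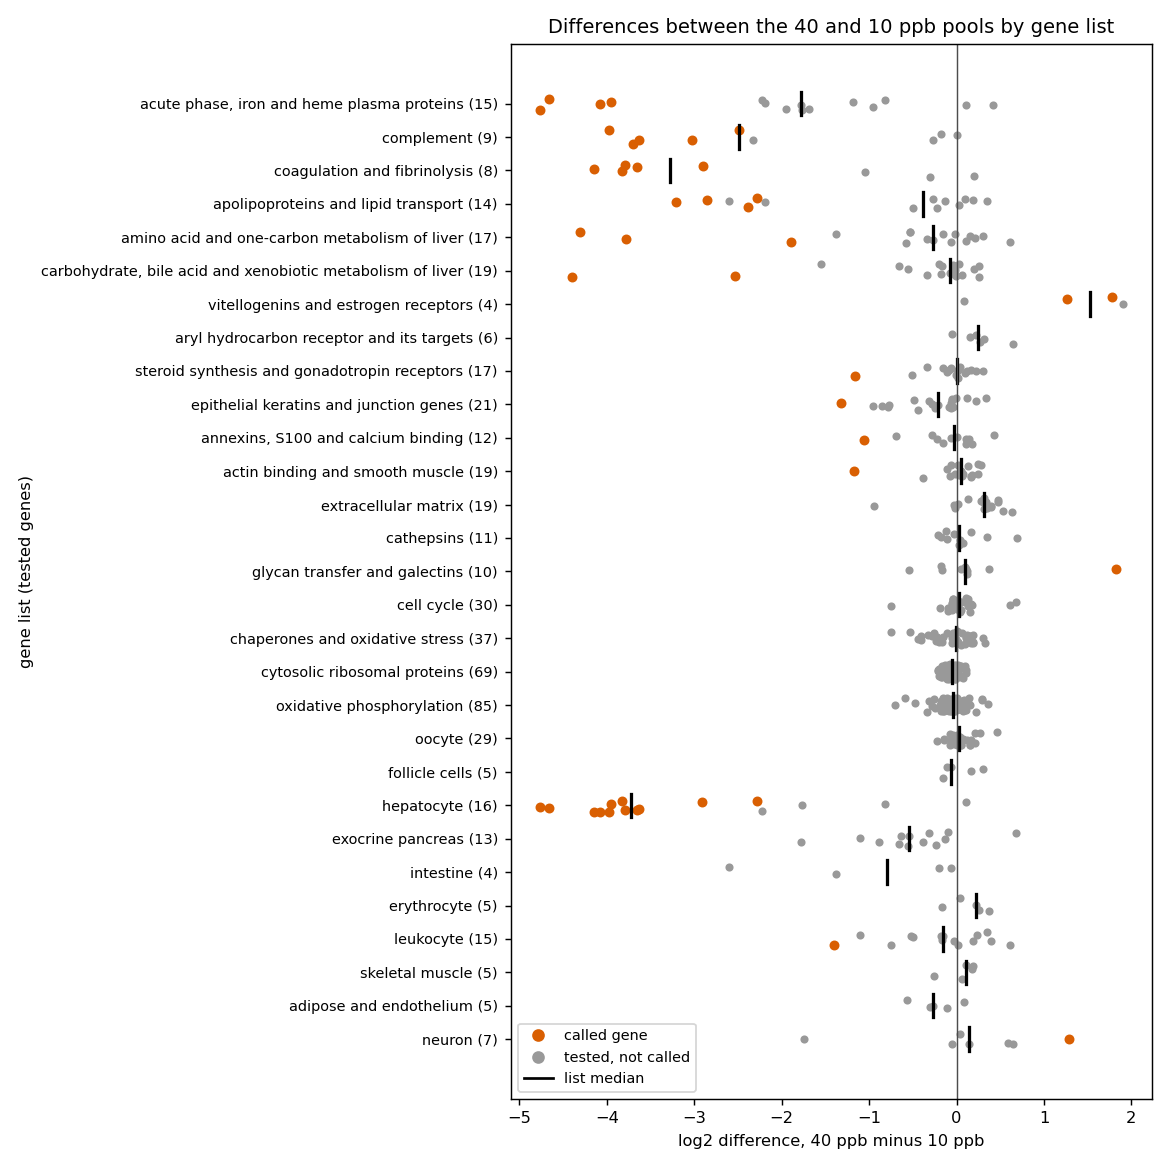
Log2 difference, 40 ppb minus 10 ppb, of each tested gene on the lists with at least 4 tested genes (number tested in brackets), with called genes in orange, genes without a call in grey and the list median as a black bar. The acute phase, complement, coagulation and hepatocyte lists hold most of the called decreases, the vitellogenin list lies above 0, and the ribosomal, respiratory and oocyte lists cluster around 0.

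Several decreases could not be assigned to a gene. Of the 63, 11 had no gene symbol and 6 had several. The largest of all, a probe set without a gene name, stood at 4.218 and 4.504 at 40 ppb and at 10.49 and 8.42 at 10 ppb, at least 24.7-fold lower, since both arrays at 40 ppb were under the tag controls. In all, 14 of the 63 decreases were under the tag controls on both arrays at 40 ppb and so have only such a bound. Of the 28 increases, 10 had no symbol and 1 had several, and 2 were under the tag controls on both arrays at 10 ppb.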

How the data were processed

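Each of 4 pools of ovary RNA was measured on 2 Affymetrix arrays. The table the authors deposited holds 1 linear intensity per probe set and array, MAS5 signals per the submitters' processing notes. Neither its version nor its scaling target is given in the sources used here. Per the file headers, the instrument files hold other values, the settings of each run, and served only to find which arrays shared a day. The table has 15617 probe sets, 115 of them controls that were dropped, and of the other 15502 the platform annotation gave 1 symbol to 10795, several to 135, and none here to 4572. No genome or sequence was used.

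Values were log2(intensity + 16), quantile normalized over 8 arrays, and probe sets above the 40th percentile of the mean (5.11) were tested with limma 3.58.1 in R 4.3.3 (lmFit on 4 group means, eBayes with a variance trend, Benjamini-Hochberg). A call needed an adjusted p under 0.05 and a log2 difference of at least 1. The script was tested on simulated data. A list counts each gene by its brightest probe set. Where the dimmer pool was under the tag controls on both arrays, the fold is a bound: the mean of the brighter pool against, on each dim array, the lowest signal above the controls or the probe set's own value if higher. The number of arrays limits the precision.

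Named genes are the 20 largest called differences each way with 1 symbol, placeholders passed over; called list members; defining list members; and the 5 named genes with the widest gap at 10 ppb. The comparison, gene lists and rule were chosen with earlier results of these data known. Alternatives covered scaling, pseudocount, filter, scan day, replicate number, arrays left out, the minimum difference and the variance trend.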

Additional observations from a re-analysis of the deposited data

How the results depend on the processing

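None of the 45 called named genes changed direction under an alternative that tested it. For all 63 decreases and 28 increases the 40 and 10 ppb arrays did not overlap. Leaving out an array or changing the filter could therefore not reverse a sign, and the unchanged direction is no separate support. The 60th percentile tested 17 of the 45, the fit without liver lists and discordant probe sets 15, the filter over the 0 and 100 ppb arrays 36 and a pseudocount of 1 tested 41. The filter over the 0 and 100 ppb arrays left out hpxb, which passed the main filter only through its 10 ppb values. That alternative therefore could not end its call. The count of 91 calls was 51 (12 higher, 39 lower) with a pseudocount of 64, 32 (13 and 19) with only probe sets above the 60th percentile tested, 10 (4 and 6) from a fit on only the 4 arrays compared, 137 (57 higher) without a minimum difference, and 38 (14 lower) without the liver lists and the probe sets at least 1 apart between the 10 ppb arrays. The deposited scaling gave 11 increases, and scan day as a block gave 57. The share of increases, 30.8%, was 43.2% with scan day as a block, 40.6% with the 60th percentile, 39.4% with the filter over the 0 and 100 ppb arrays, 40% with 4 arrays, 41.6% without a minimum difference and 63.2% without the liver lists and discordant probe sets. The 10 ppb arrays were at least 1 apart for 51 of the 63 decreases and 3 of the 28 increases. The 63.2% thus follows largely from what was dropped. Leaving out 1 array gave 36 to 161 calls, 11 to 47 higher and 25 to 122 lower, and 8 to 38 decreases on the liver lists. Of the 45 genes, 16 were called in every fit without 1 array, and 5 (gbgt1l4, hpxb, stk3, tfa and ucp1) under every alternative that tested them. The replicate block gave 103 calls, including all 91; deviations of same-numbered arrays correlated at 0.04 between 40 and 10 ppb, 0.21 between 40 and 0 ppb, 0.30 between 40 and 100 ppb, 0.01 between 10 and 0 ppb and 0.05 between 10 and 100 ppb, so the numbers were not taken as pairing the 40 and 10 ppb arrays beyond the shared day of replicates 2. In fits without 1 array of a pool, the lone array is assumed to vary like the other pools. In the fit on only the 4 arrays compared, 6 of the 45 genes kept their call and 39 lost it. The smaller fits hold fewer arrays or genes, and otherwise the cause was not tested. Signal over background limits 14 of the 63 decreases to a bound.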

Other observations

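Several probe sets differed between arrays in ways the doses do not follow. The stress-induced gene ddit4, an inhibitor of mTOR signalling, had the widest gap between the 10 ppb arrays of all tested genes with 1 symbol. It read 8.90 and 7.01 at 40 ppb and 9.42 and 5.59 at 10 ppb, and replicate 1 was above replicate 2 at 0 and 100 ppb too, at 8.05 and 5.97 and at 9.45 and 8.13. The fetuin gene fetub, on both the acute phase and the pancreas list, read 5.67 and 5.68 at 40 ppb and 8.73 and 6.18 at 10 ppb, and between 5.35 and 5.79 on the other 4 arrays.

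Some decreases fell outside the rule for named genes and were picked out after their values were seen. They were itih3b.2, an inter-alpha-trypsin inhibitor heavy chain, on 2 probe sets (-2.44 and -2.26), faxdc2 (-1.72), cdo1, the cysteine dioxygenase (-1.61), the endosomal GTPase rab5b (-1.21), sdr16c5b (-1.19) and enc3 (-1.05). For rab5b the arrays read 6.43 and 6.56 at 40 ppb and 7.55 and 7.86 at 10 ppb, while those at 0 ppb, 6.14 and 6.42, were near the 40 ppb pool. The increase of LOC100002043 was larger (2.40), from arrays of 8.39 and 8.13 at 40 ppb and of 6.66 and 5.05 at 10 ppb.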
